A study of Homo sapiens with 12 samples.

Results

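Total RNA and poly(A) RNA were set side by side as starting materials for mapping N6-methyladenosine (m6A), the methyl mark on internal adenosines of RNA, in 143B cells, an established human osteosarcoma line. The members were the 2 m6A immunoprecipitates of replicate 2, which per the protocol in the labels were made from total RNA, and they were compared with the 4 immunoprecipitates of replicates 1 and 3, which were made from polyadenylated, or poly(A), RNA. These 6 libraries are the immunoprecipitates among the 12 samples of the series, and the 6 matched inputs were not analysed here. Each RNA type holds both siRNA conditions, ALKBH5 knockdown and scrambled-siRNA control, with 1 library per condition and replicate, so siRNA is balanced between the types. All cells were transfected and harvested at 48 h. ALKBH5, the target of the siRNA, is an enzyme that takes the methyl group off m6A. Poly(A) replicate 1 used an antibody of Synaptic Systems and poly(A) replicate 3 used ABE572 of Millipore. Total RNA went through the Magna MeRIP m6A kit with antibody MABE1006. RNA type, kit, antibody and replicate number therefore cannot be told apart. In the labels, the antibody field gives that of replicate 1 for all 6 immunoprecipitates and the molecule field gives total RNA for all of them, so the difference rests on the protocol text. That text names 1 library guide, for stranded mRNA, with no exception for replicate 2. Nothing in the labels says whether the replicate numbers were separate cultures, and the spread that the p-values rest on may be technical.

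In cells, m6A is laid down on nascent mRNA and some long noncoding RNAs by a METTL3 and METTL14 complex with its partners WTAP, VIRMA, ZC3H13 and RBM15. YTH-domain proteins read the mark, and FTO and ALKBH5 remove it. Long internal exons, the region around stop codons and 3′ UTRs carry much of the mark in mammalian mRNA. Total RNA is mostly ribosomal RNA and also holds transcripts without a poly(A) tail, such as replication-dependent histone mRNAs, whereas selection on oligo(dT) keeps tailed transcripts. MeRIP-seq enriches RNA fragments with an m6A antibody before sequencing, and a peak is a stretch of exon where the enriched reads pile up. Each library had 1 deposited peak list. A gene or region is "called" in a library when its list has a peak there, and a gene without a call may still carry the mark. The lists hold no read counts, so the depth behind them is unknown.

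The total RNA lists were short. They held 5917 peaks in the knockdown library and 5677 in the scrambled library. The poly(A) lists held 17563 peaks (knockdown replicate 1), 15139 (scrambled replicate 1), 18360 (knockdown replicate 3) and 18724 (scrambled replicate 3), and this order is kept wherever 4 poly(A) values are given. Total RNA values are given as knockdown, then scrambled. Genes with a peak numbered 3373 and 3305 in total RNA against 8267, 7010, 9125 and 9288 in poly(A) RNA. The total RNA lists covered 1084 and 961 kb of exon, and the poly(A) lists covered 5746, 3661, 7855 and 7854 kb. None of these counts overlapped between the RNA types. The two-sided exact permutation test of 2 against 4 libraries has 15 splits and cannot go below p = 0.0667, which is the value that peaks, genes and covered length reached (0.0867 after Benjamini-Hochberg adjustment over 13 library measures). No library measure can pass 0.05 in this design. ALKBH5 itself had no peak in either total RNA list or in the poly(A) knockdown lists, and 1 peak in each poly(A) scrambled list (210 nt in replicate 1 and 150 nt in replicate 3). These 2 peaks lay in 2 separate places, so no ALKBH5 site was called in more than 1 list.

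The total RNA lists lay almost wholly inside the longer full poly(A) lists, and less so at equal list length. Joining overlapping peaks of the 6 lists strand by strand gave 21675 regions, of which 2946 were called in both total RNA libraries. Of these 2946 regions, 2759 were also called in all 4 poly(A) libraries, a share of 93.7% (95% Wilson interval 92.7 to 94.5%, counting error only). The 2759 shared regions are 12.7% of all regions. At the level of genes, 2531 carried a peak in both total RNA lists, and 2452 of them (96.9%, interval 96.1 to 97.5%) did so in all 4 poly(A) lists as well. These 2452 genes are 23.3% of the 10536 genes named in any list. The total RNA lists held 4248 and 4120 regions in all and so could not hold every poly(A) region. Of 8191 regions called in all 4 poly(A) libraries, both total RNA lists held 33.7% and neither held 45.1%. Of 6182 genes called in all 4 poly(A) libraries, both total RNA lists held 39.7% (2452 genes) and neither held 39.7% (2455 genes). Shares in both directions change with list length, as seen when every list was reduced to its best-scored 5677 peaks. Both total RNA lists then held 68.6% of the genes in all 4 poly(A) lists and neither held 12.8%. The regions in all 4 poly(A) lists and neither total RNA list fell from 3696 to 369. Of 2481 genes then in both total RNA lists, 1647 were in all 4 poly(A) lists and 108 in none, a lower share than the 96.9% of the full lists.

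**Figure D1:**
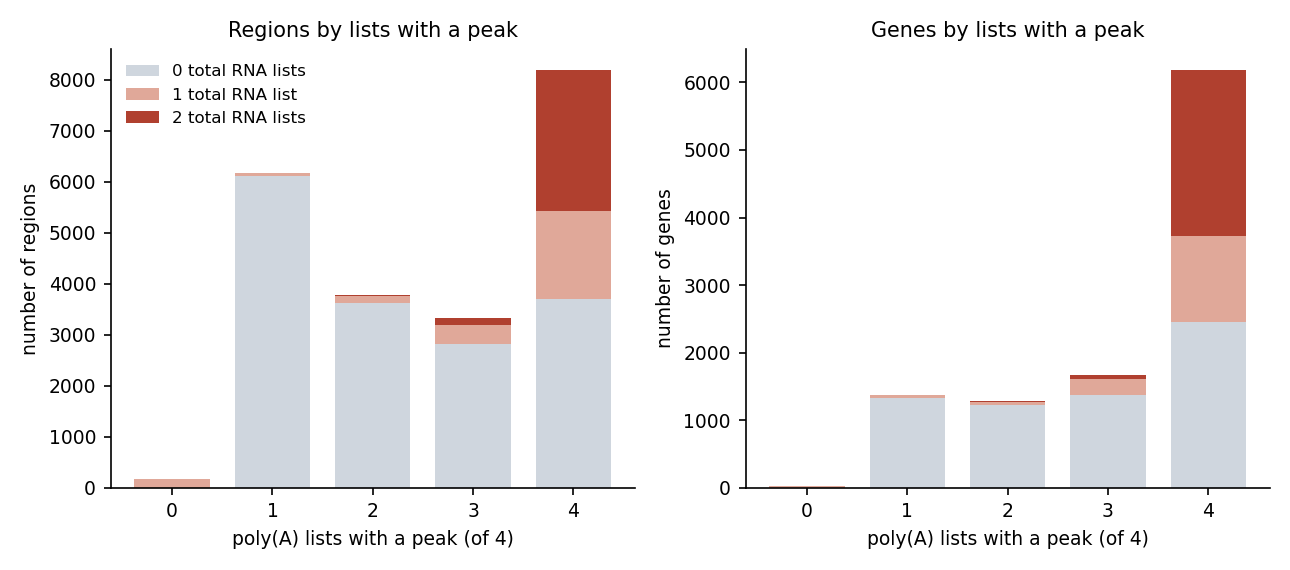
Numbers of regions (left) and genes (right) by how many of the 4 poly(A) lists have a peak there, with each bar divided by how many of the 2 total RNA lists do. Calls in both total RNA lists sit almost wholly in the bar of all 4 poly(A) lists, 2759 of 2946 regions and 2452 of 2531 genes.

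Calls in total RNA were steeply concentrated among sites found in every poly(A) library. Both total RNA lists held 0.113% of the regions called in 1 poly(A) list, 0.633% of those in 2, 4.26% of those in 3 and 33.7% of those in 4. The corresponding shares of genes were 0.291%, 0.546%, 4.00% and 39.7%. Regions called in a single total RNA list followed the same pattern less closely, with 1736 of 2476 (70.1%) in all 4 poly(A) lists and 93.4% in at least 1. Calls that total RNA shared with 1 poly(A) replicate alone were few either way. Of 516 regions called in both libraries of replicate 1 and neither of replicate 3, 4 were in both total RNA lists, and of 2210 regions with the opposite pattern, 13 were.

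The total RNA lists shared less with each other than with the longer poly(A) lists. The knockdown list shared 69.4% of its regions with the scrambled list, and the scrambled list shared 71.5% of its own with the knockdown list. By comparison, the knockdown total RNA list shared 95.5%, 87.0%, 96.3% and 95.2% of its regions with the 4 poly(A) lists, and the scrambled list shared 95.4%, 89.2%, 95.9% and 96.6%. The lowest share was with the shortest poly(A) list in each case. The Jaccard index, shared regions over regions in either list, was 0.543 for the total RNA pair, 0.495 to 0.717 for the 6 poly(A) pairs and 0.242 to 0.328 for the 8 mixed pairs. List length alone caps the mixed pairs at 0.253 to 0.395.

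At the level of bases, 586 kb of exon were covered in both total RNA lists. Of this, 99.7% was covered in at least 1 poly(A) list and 85.8% in all 4. In the other direction, 18.3% of the 2743 kb covered in all 4 poly(A) lists was covered in both total RNA lists.

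SMC3, which encodes a subunit of the cohesin ring, was the only gene with a peak in both total RNA lists and in no poly(A) list (0.00949% of the genes named in any list). It had 1 peak of 91 nt in the knockdown library and 2 peaks of 300 nt together in the scrambled library. The 3 peaks formed 3 separate regions, so the 2 libraries shared no SMC3 site. A further 23 genes (0.218% of the genes named in any list) had a peak in 1 total RNA list and in no poly(A) list. They included AKT1, a kinase of growth-factor signalling, SF3B1, a core splicing factor, and HK1, a glycolytic hexokinase. XPO5, the exporter of pre-miRNA, and CTSD, a lysosomal protease, were also among them (all named after their values were seen). The AKT1 peak covered 151 nt, and the peaks of SF3B1, HK1, XPO5 and CTSD covered 61 nt each. The shortest peak in any list covered 55 nt. The share of its list's peaks that scored no better was 75.0% for AKT1, 41.6% for SF3B1, 9.39% for HK1, 29.0% for XPO5 and 38.6% for CTSD. CDC5L, a splicing factor, was the only gene covered more in both total RNA lists than in every poly(A) list while having a poly(A) peak at all. Its peak covered 150 and 121 nt in total RNA, 90 nt in poly(A) knockdown replicate 1 and 0 nt in the other 3 poly(A) lists.

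Further genes, 11 with CDC5L included, had a peak in both total RNA lists and in only 1 or 2 poly(A) lists. Of these, 4 were in 1 poly(A) list (0.0380% of the genes named in any list) and 7 in 2 (0.0664%). These 11 were picked out after their values were seen. DDX46, a helicase of the spliceosome, covered 181 and 151 nt in total RNA, 389 nt in each poly(A) replicate 1 list and 0 nt in both replicate 3 lists. TNPO3, a nuclear import receptor, went the other way within poly(A) RNA, with 181 nt in each total RNA list, 0 nt in both replicate 1 lists and 392 and 241 nt in replicate 3. RDH11, a retinol dehydrogenase, likewise had 150 and 211 nt in total RNA, 0 nt in replicate 1, and 360 and 807 nt in replicate 3. The others were INTS3, a subunit of the Integrator complex, MRPS34, a mitochondrial ribosomal protein, TPM1, an actin-binding tropomyosin, RAB5B, an early endosome GTPase, the linker histone H1-10, the transcription factor RFX5 and PFAS, an enzyme of purine synthesis. INTS3, TPM1, RFX5 and PFAS covered 302, 212, 181 and 210 nt in the knockdown total RNA list but only 61 nt each in the scrambled one. MRPS34, RAB5B and H1-10 covered 206, 121 and 178 nt in the knockdown list and 118, 121 and 89 nt in the scrambled list.

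Only 14 regions, 0.0646% of all regions, were called in both total RNA lists and no poly(A) list. All 14 lay in genes with a poly(A) peak elsewhere, and 9 of the 14 genes were called in all 4 poly(A) libraries. The region with the highest within-list rank lay in CCDC50, a coiled-coil effector of EGF receptor signalling, at chr3:191097998-191100558 on the plus strand (hg19 here and below, counted from 1). Its peaks covered 240 and 181 nt over up to 4 exon blocks. MACF1, a cytoskeletal crosslinker, had such a region at chr1:39888572-39893139 on the plus strand with 91 and 181 nt, although the gene had 10, 7, 9 and 9 peaks in the poly(A) lists. In STK10, a serine/threonine kinase, the region lay at chr5:171480004-171482662 on the minus strand with 150 and 211 nt. LRP6, a Wnt co-receptor, had 151 and 121 nt at chr12:12318031-12318181 on the minus strand. The next by rank were MLLT1 (chr19:6222182-6222301), CELSR1 (chr22:46794453-46795681), RAB5B (chr12:56384472-56385147), CHD3 (chr17:7801400-7801913), SWAP70 (chr11:9769473-9770682) and INTS3 (chr1:153746046-153746196). No hg19 annotation was used here, so exon, intron and UTR are not given for these positions.

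These 14 regions were short, with a median of 150.5 nt of exon, and 9 of them held a peak that spanned 2 or more exon blocks. The same held for the 164 regions called in 1 total RNA list only. Their 165 peaks had a median length of 90 and 91 nt in the knockdown and scrambled lists, and 45.6% and 41.3% of them spanned 2 or more blocks, against 3.88% and 3.61% of the other peaks of those lists. In the replicate 1 poly(A) lists, peaks in regions of that list alone also spanned blocks more often than the other peaks, 26.5% against 13.5% in the knockdown library and 36.3% against 9.44% in the scrambled library. In both replicate 3 lists the order was opposite, as with 5.69% against 15.4% in the scrambled library. The count of 14 changed with list length: when every list was reduced to its best-scored 5677 peaks, 212 regions and 108 genes were in both total RNA lists and no poly(A) list. Of those 108 genes, 64 had a peak in all 4 full poly(A) lists and 1, SMC3, had none.

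Among the 2455 genes called in all 4 poly(A) lists and neither total RNA list (23.3% of the genes named), those with the highest rank in poly(A) RNA were ZNF274, LINC02693, CEP350, NHSL1-AS1, ZNF212, CARD8, ZNF211, NANP, ONECUT2 and SAP130. Over all 2455 such genes, 185 were ZNF genes and 119 were noncoding by name. These are 58.9% of the 314 ZNF genes and 64.3% of the 185 genes noncoding by name in all 4 poly(A) lists. Of all 6182 genes in all 4 poly(A) lists, 39.7% were in neither total RNA list. A percentile here is the share of a list's peaks that score no better than the gene's best peak in that list. ZNF274, a KRAB zinc finger repressor, covered 777, 687, 1014 and 1134 nt in poly(A) RNA with best peaks at percentiles of 94.9, 98.5, 97.7 and 96.0, all in 1 region at chr19:58723764-58724897 on the plus strand. CEP350, a large centrosomal protein, had 7, 5, 8 and 8 peaks that covered 1833, 1381, 3392 and 3542 nt. ONECUT2, a homeodomain transcription factor, had 5, 4, 6 and 6 peaks that covered 1653, 1293, 2523 and 2432 nt. Each of these 3 genes was at 0 in both total RNA lists, and its best peak stood above percentile 90 in every poly(A) list. The genes were chosen for no total RNA call and a high poly(A) rank, so both properties follow from the choice. CARD8, an inflammasome sensor, covered 990, 1050, 1050 and 1258 nt. NANP, a phosphatase of sialic acid synthesis, covered 569, 510, 629 and 718 nt with a single peak per library. SAP130, a subunit of the Sin3 corepressor, covered 687, 627, 687 and 776 nt, also with a single peak per library.

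Single regions of this kind also lay in genes that total RNA did call elsewhere. The 3696 regions in all 4 poly(A) lists and neither total RNA list are 17.1% of all regions. The highest-ranked was in TBC1D10B, a Rab GTPase-activating protein, at chr16:30368811-30369708 on the minus strand, with 808, 629, 868 and 808 nt in poly(A) RNA and 0 nt in total RNA, where the gene nonetheless had 1 peak in each list. USF3, a transcription factor of the bHLH family, followed at chr3:113378930-113383196 on the minus strand with 931, 570, 1201 and 1380 nt, and POU2F2, an octamer-binding factor, at chr19:42594872-42595411 on the minus strand with 330, 361, 510 and 510 nt. Both genes had peaks elsewhere in both total RNA lists.

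The genes that led the total RNA lists were high in poly(A) RNA too. The 10 genes of all 6 lists with the best rank in total RNA were DIDO1, SLC35E2B, PDE4B, WDR81, RSF1, R3HCC1, IRS1, ITPRIP, SON and ADNP. DIDO1, a PHD-finger protein that reads histone marks, held the best score of both total RNA lists (percentile 100 in each) and covered 2404 and 1595 nt there against 4503, 2823, 5489 and 5759 nt in poly(A) RNA. SON, a splicing protein of nuclear speckles, covered 1383 and 1442 nt with 6 and 5 peaks in total RNA, and 3209, 1983, 5001 and 4556 nt with 6, 7, 2 and 6 peaks in poly(A) RNA. IRS1, the insulin receptor substrate, covered 1528 and 1199 nt against 3473, 2456, 4070 and 3174 nt. In all 3 genes every poly(A) list covered more than either total RNA list. ADNP, a homeobox protein bound to chromatin remodellers, was closer, with 807 and 809 nt in total RNA against 1195, 569, 1403 and 2180 nt, so the scrambled replicate 1 list covered less than both. RSF1, a nucleosome-remodelling factor, also overlapped, with 602 and 903 nt against 960, 662, 1022 and 1412 nt. PDE4B, a cAMP phosphodiesterase, covered 330 and 390 nt against 721, 540, 901 and 1140 nt.

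Rank within a poly(A) list went with a call in total RNA. Each list was divided by score into 10 bins of similar size. Peaks with tied scores stayed together, so the bins were not equal (496 to 633 peaks in the knockdown total RNA list). In the best bin of each poly(A) list, 61.7 to 72.4% of peaks lay in regions called in both total RNA lists. In the next bin the range was 46.5 to 50.3%, in bin 5 it was 11.1 to 27.1% and in the last 2.85 to 18.9%. In the opposite direction the share also fell with rank, but by less. In the best bin of the total RNA lists 97.8 to 98.1% of peaks lay in regions of all 4 poly(A) lists, and in the last bin 80.6 to 83.5% still did. Regions of all 4 poly(A) lists that both total RNA lists called had a median poly(A) percentile of 84.1 and a median length of 900 nt, those called in 1 total RNA list had 71.2 and 690 nt, and those called in neither had 57.3 and 570 nt. Genes showed the same order: the 2452 genes of all 6 lists had a median of 2 poly(A) peaks over 1014 nt, the 1275 with 1 total RNA call had 1.75 peaks over 683 nt, and the 2455 with none had 1.5 peaks over 509 nt. Rank and length moved together here and are not separate measures.

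**Figure D2:**
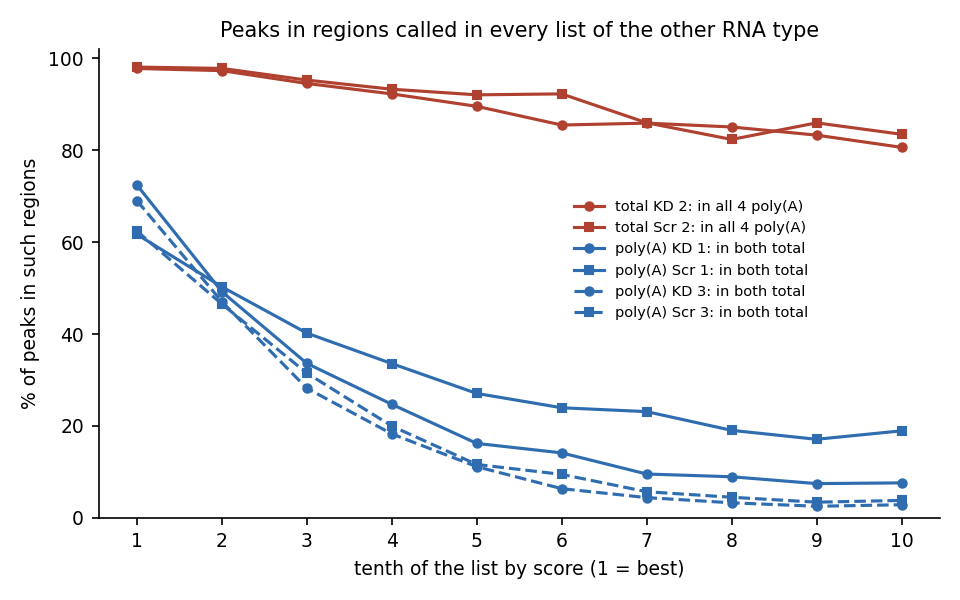
Share of each list's peaks (vertical axis, %) that lie in regions called in every list of the other RNA type, by score bin. The horizontal axis gives 10 bins of similar size per list from best to worst (KD is knockdown, Scr is scrambled). Blue poly(A) lines fall from 61.7 to 72.4% in the best bin to 2.85 to 18.9% in the last, and red total RNA lines end at 80.6 to 83.5%.

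The same held inside single genes. There were 1575 genes with 2 or more regions called in all 4 poly(A) lists. In 207 of them both total RNA lists called all of those regions, in 704 they called none, and in 664 they called some. Within the 664 mixed genes, the region that ranked best in poly(A) RNA was in both total RNA lists in 77.6% of genes, and the region that ranked worst in 19.4%. Position along the gene separated them far less: the 5′-most of these regions was in both total RNA lists in 46.2% of the 664 genes and the 3′-most in 50.9%. Over the 2672 genes with at least 3 regions of any kind, total RNA called 31.3% of the 5′-most, 33.8% of the inner and 34.1% of the 3′-most regions of all 4 poly(A) lists. In total RNA 25.6 and 27.6% of peaks in such genes lay in the 3′-most region, against 25.4, 24.2, 27.6 and 28.2% in poly(A) RNA. These ranges overlap (difference 0.24 percentage points, exact permutation p = 0.867), and the sign of the difference turned when lists of equal size were used (-2.14) or when the total RNA scrambled library (-0.74), poly(A) knockdown replicate 1 (-0.10) or poly(A) scrambled replicate 1 (-0.48) was left out.

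Peaks were shorter in total RNA. The median peak covered 151 nt in both total RNA libraries and 269, 209, 331 and 331 nt in the poly(A) libraries, and the longest covered 1496 and 1109 nt against 3840, 1912, 5990 and 4380 nt. The medians did not overlap between the types (difference -134 nt, exact permutation p = 0.133). The same sites gave the same picture: in the 2759 regions called in all 6 libraries, the median peak covered 181 and 180 nt in total RNA and 510, 301, 750 and 685 nt in poly(A) RNA. Summed over a region, the median was 240 and 212 nt against 689, 480, 835 and 779 nt. Both total RNA libraries covered less than every poly(A) library in 2146 of these regions (77.8%), and in 0 of them did both cover more than every poly(A) library. Total RNA peaks in these regions lay inside the longer poly(A) peaks. Of the 4200 such peaks of the knockdown library, 90.3%, 60.2%, 96.4% and 94.0% lay wholly within the span of 1 peak of the respective poly(A) list, and of the 4132 of the scrambled library 92.2%, 65.9%, 96.8% and 96.9% did. Where both libraries of a pair had 1 peak on 1 exon block, the midpoints of total RNA and poly(A) peaks differed by a median of 45 to 74.5 nt without sign. With sign, the median shift was 0 to 30 nt towards the 5′ end in total RNA, measured along the genome. The midpoints of the 2 total RNA lists differed by a median of 30 nt in 1507 such regions.

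**Figure D3:**
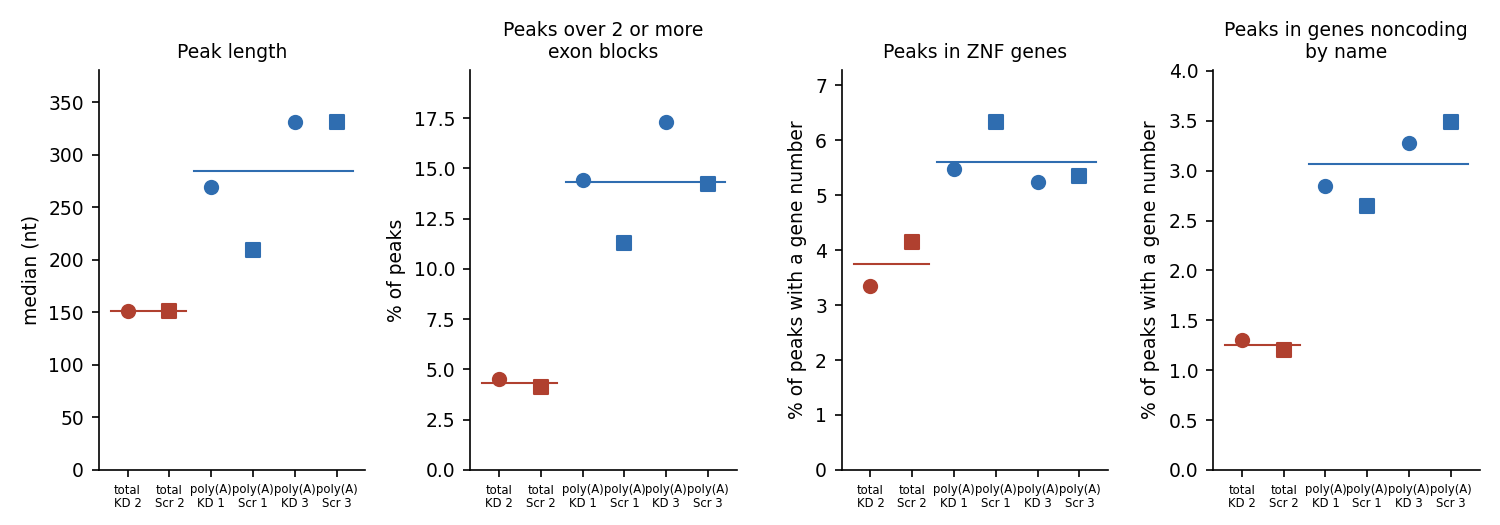
Values per library (total RNA in red, poly(A) RNA in blue, knockdown or KD as circles, scrambled or Scr as squares, lines at group means): median peak length in nt, share of peaks over 2 or more exon blocks, and shares of gene-numbered peaks in ZNF genes and in genes noncoding by name. In each panel both total RNA libraries lie below all 4 poly(A) libraries.

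Peaks that run across a splice junction were rarer in total RNA. A peak with 2 or more exon blocks joins sequence from neighbouring exons. Such peaks were 4.51 and 4.10% of the total RNA lists (267 and 233 peaks) and 14.4, 11.3, 17.3 and 14.2% of the poly(A) lists. The difference was -10.0 percentage points (exact permutation p = 0.0667, 0.0867 adjusted over 13 measures). Longer peaks reach more exon ends, so the shares were also taken within classes of peak length. Total RNA was lower in all 6 classes with no overlap of the ranges. From 150 to 199 nt the shares were 4.82 and 4.79% in total RNA against 13.3, 12.6, 10.7 and 8.59%. From 300 to 499 nt they were 5.28 and 4.01% against 15.3, 12.2, 17.5 and 14.6%. In the longest class, from 500 nt, 8.02 and 8.82% of 237 and 136 total RNA peaks crossed a junction, against 22.2, 17.5, 28.3 and 22.8%. The exact permutation p was 0.133 in the shortest 2 classes and 0.0667 in the other 4.

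**Figure D4:**
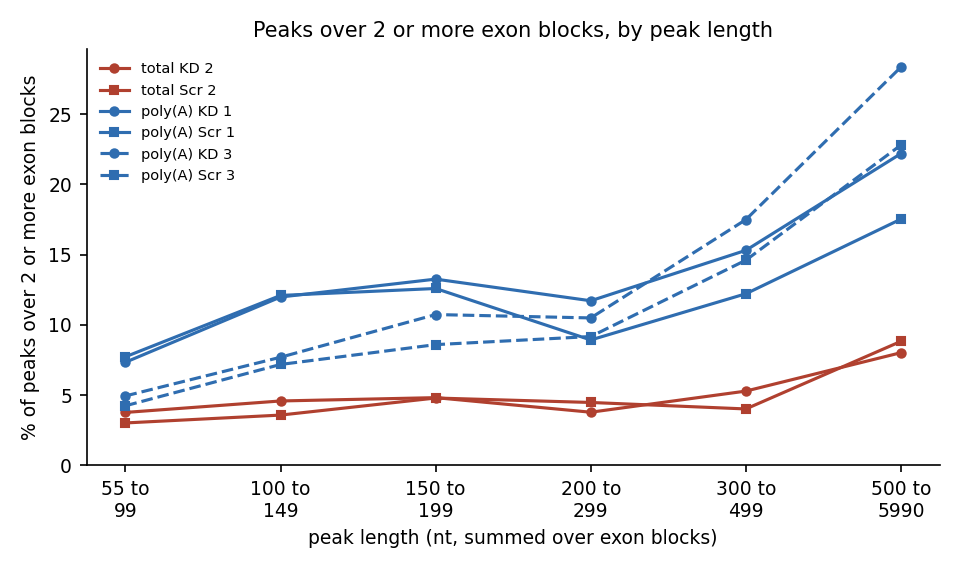
Share of peaks that span 2 or more exon blocks (vertical axis, %) by class of peak length in nt (horizontal axis), 1 line per library (KD is knockdown, Scr is scrambled). The red total RNA lines lie below all blue poly(A) lines in each of the 6 classes, by the least in the class up to 99 nt (3.02 to 3.76% against 4.24 to 7.73%).

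The junction-spanning sites themselves were not missing from total RNA. Of 536 regions whose peaks crossed a junction in all 4 poly(A) lists, both total RNA lists called 58.2%, against 29.2% of the 5373 regions where no poly(A) peak did. These regions also rank higher. With the 8191 regions in 5 equal classes of rank, the shares were 77.3% (170 of 220) and 75.5% (678 of 898) in the best class, and 59.6% and 41.2% in the next. Both total RNA lists called 312 such regions. A junction-spanning peak was present in 86 (27.6%) and 89 (28.5%) of the 312 in total RNA. The regions were chosen by a junction-spanning peak in all 4 poly(A) lists, which therefore stand at 100%. Any list left out of that choice could only be equal or lower, so these shares do not compare the RNA types. In 193 of the 312 neither total RNA list had such a peak. In those 193 no single total RNA peak joined exons, although a region can hold several peaks. COA7, a cytochrome c oxidase assembly factor, had 1 peak per library at chr1:53153145-53163919 on the minus strand. The peak took in 1 exon block in each total RNA list (596 and 566 nt) and 2, 2, 3 and 2 blocks in the poly(A) lists (745, 686, 864 and 715 nt). SPRED2, an inhibitor of Ras-MAPK signalling, had 2 peaks in each total RNA list, each on a single block, over 482 and 452 nt at chr2:65540025-65543968 on the minus strand, and 1170, 902, 1380 and 1290 nt in peaks of up to 2 blocks in poly(A) RNA. BTBD7, a BTB-domain regulator of epithelial branching, had 2 such peaks in each total RNA list over 811 and 422 nt at chr14:93708449-93712622 on the minus strand against 1348, 961, 1438 and 1378 nt. These 3 were among the 5 best-ranked of the 193 and were chosen after their values were seen. The choice of the 193 fixed their contrast in exon blocks, so they are examples and do not compare the RNA types.

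Gene groups with at least 5 genes in all 4 poly(A) lists ranged from 13.5 to 78.5% in the share of those genes that total RNA also called. Each group is described by its members called in all 4 poly(A) lists and the share of those in both total RNA lists, beside 39.7% over all 6182 genes. Since total RNA calls went with poly(A)-covered length, the 6182 genes were also put in 5 equal classes of that length, and the share within each class is added for chromatin regulators, ZNF genes, genes noncoding by name and solute carriers. Peak calls are not RNA levels, and fewer marked molecules and less RNA cannot be told apart in these lists.

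Chromatin regulators had the highest share of these groups. Of 75 genes for histone methyltransferases, demethylases, acetyltransferases, readers and remodellers, 65 were called in all 4 poly(A) lists, and 51 of these (78.5%) in both total RNA lists. KMT2D, a histone H3 methyltransferase, had 9 and 5 peaks over 1957 and 1025 nt in total RNA and 9, 9, 8 and 8 peaks over 4807, 2377, 6782 and 5433 nt in poly(A) RNA. SETD2, which also methylates histone H3, covered 782 and 1294 nt against 2195, 2436, 2943 and 3333 nt, and the acetyltransferase EP300 covered 1231 and 1321 nt against 2426, 2007, 3202 and 2993 nt. NSD1, another histone methyltransferase, covered 1475 and 1745 nt against 3691, 2796, 4619 and 4409 nt. In these 4 genes every poly(A) list covered more than both total RNA lists. Total RNA called neither BRD2, a bromodomain reader with 4, 2, 4 and 3 poly(A) peaks, nor the Polycomb subunit EED, the deacetylase HDAC4 or the demethylase KDM4C. The group's genes are long in peak: 37 of the 65 fell in the longest class of covered length, where 35 (94.6%) were in both total RNA lists, against 70.1% of all genes of that class. From the next class down to the shortest it was 11 of 13 against 50.2%, 3 of 4 against 38.0%, 2 of 6 against 26.9% and 0 of 5 against 13.2%.

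The genes of the m6A pathway itself were mostly followed as well. Of 25 genes, 14 were called in all 4 poly(A) lists and 10 of these (71.4%) in both total RNA lists. The 14 genes had a median poly(A)-covered length of 1103 nt, against 705 nt over all 6182 genes. Total RNA calls went with that length, and shares by class of length are not given for this group. RBM15, an adaptor of the writer complex, had 4 and 4 peaks over 1317 and 1167 nt in total RNA, and 2, 5, 3 and 2 peaks over 2179, 1585, 2449 and 2567 nt in poly(A) RNA. The writer subunits ZC3H13, WTAP, VIRMA and RBM15B, the methyltransferase METTL16 and the readers YTHDF1, YTHDF2, YTHDF3 and IGF2BP3 were also in all 6 lists. ZC3H13 covered 630 and 750 nt against 2607, 2247, 2397 and 2249 nt, and YTHDF3 covered 511 and 481 nt against 2098, 1291, 1798 and 1947 nt. The catalytic pair was not: METTL14 covered 535, 298, 654 and 772 nt and METTL3 covered 507, 120, 329 and 90 nt in poly(A) RNA, and neither had a peak in total RNA. The demethylase FTO was called in both total RNA lists (180 and 181 nt) and in 3 poly(A) lists (479, 0, 628 and 509 nt).

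Immediate early genes, which cells switch on quickly after a stimulus, were called in all 4 poly(A) lists in 27 of 33 cases, and 16 of the 27 (59.3%) were in both total RNA lists. FOSL2, a subunit of AP-1, covered 509 and 419 nt in total RNA and 1287, 1199, 1856 and 1287 nt in poly(A) RNA. IER5L was covered about as far in both types, with 716 and 597 nt against 775, 806, 834 and 805 nt, although all 4 poly(A) values were higher. ZFP36L2, which binds AU-rich elements, covered 358 and 566 nt against 656, 626, 597 and 775 nt, which do not overlap. BTG2, DUSP5, FOSB and NR4A1 had no total RNA peak. DUSP5, a nuclear ERK phosphatase, was nonetheless covered over 1071, 657, 1220 and 1131 nt in poly(A) RNA. JUN had a peak in the scrambled total RNA list only, of 61 nt, against 1259, 481, 1738 and 1530 nt.

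**Figure D5:**
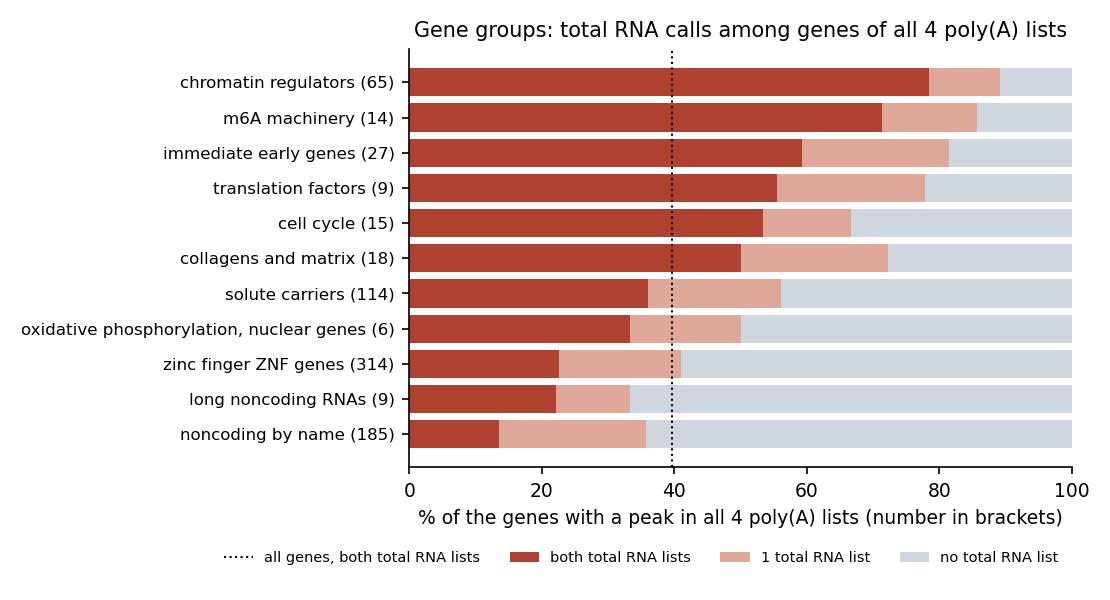
For each gene group with at least 5 genes in all 4 poly(A) lists (number in brackets), the percent of those genes in both, 1 or neither total RNA list. The dotted line is the share of all genes in both total RNA lists, 39.7%; chromatin regulators (78.5%) lie farthest above it and genes noncoding by name (13.5%) farthest below.

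Zinc finger genes were the largest group and had a share below that of all genes. The symbols that begin with ZNF and a number mark mostly C2H2 zinc finger genes, many of them KRAB repressors of transposons. They took 3.34 and 4.15% of the gene-numbered peaks in total RNA and 5.48, 6.32, 5.23 and 5.34% in poly(A) RNA, with no overlap (exact permutation p = 0.0667, 0.0867 adjusted over 13 measures). Genes called numbered 90 and 113 in total RNA against 333, 335, 351 and 361. Of 314 ZNF genes in all 4 poly(A) lists, 71 (22.6%) were in both total RNA lists and 185 (58.9%) in neither. Poly(A) peaks of this group were not short or poorly ranked: the 314 genes had a median covered length of 1097 nt and a median best percentile of 77.6, against 705 nt and 74.1 over all 6182 genes. From the shortest to the longest class of covered length the share in both total RNA lists was below that of all genes, 0 against 13.2%, 11.1 against 26.9%, 7.35 against 38.0%, 19.6 against 50.2% and 38.8 against 70.1%. It was lower also among regions of like rank, 52.1% of 96 ZNF regions in the best class of rank against 77.2% of the others. With lists of equal size the shares were 41.7% for ZNF genes and 68.6% for all genes.

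Some zinc finger genes ran against the group. ZNF469 led it with 14 and 15 peaks over 6660 and 3218 nt in total RNA, and 11, 15, 9 and 12 peaks over 8062, 5104, 10396 and 7973 nt in poly(A) RNA. Its knockdown total RNA value exceeded that of the scrambled replicate 1 poly(A) list, so the types overlapped. ZNF516 covered 1474 and 963 nt against 2373, 1262, 3509 and 2672 nt, and ZNF121 covered 271 and 572 nt against 1200, 932, 1440 and 1410 nt. By contrast ZNF107 covered 872, 659, 1202 and 2129 nt in poly(A) RNA with best peaks at percentiles of 94.2, 91.9, 74.8 and 98.3 and had no peak in total RNA. ZNF10, ZNF100 and ZNF112 were also at 0 in total RNA. Many ZNF genes lie on chromosome 19, which held 5.63 and 4.84% of total RNA peaks and 6.35, 6.80, 6.18 and 6.09% of poly(A) peaks. Outside ZNF genes the chromosome's share was 5.14 and 4.10% against 4.46, 4.56, 4.20 and 4.07%, and these ranges overlapped (exact permutation p = 0.467). Copies of ZNF genes are alike in sequence, and how reads were shared among them is not given in the sources used here, so single members are uncertain.

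Noncoding transcripts had the lowest share of these groups. Genes whose symbols mark them as noncoding (LINC numbers, antisense, divergent or intronic transcripts, and snoRNA or miRNA host genes) took 1.30 and 1.20% of gene-numbered peaks in total RNA and 2.85, 2.65, 3.28 and 3.48% in poly(A) RNA, again without overlap (exact permutation p = 0.0667, 0.0867 adjusted). Of 185 such genes in all 4 poly(A) lists, 25 (13.5%) were in both total RNA lists and 119 (64.3%) in neither. From the shortest to the longest class of covered length the shares in both lists were 4.08, 4.44, 12.9, 20.5 and 42.9%, each below the share of all genes given above. LINC00205 was the best-ranked exception, with 1086 and 784 nt in total RNA against 4352, 2254, 4683 and 3841 nt in poly(A) RNA. RNF217-AS1 was covered almost equally, 240 and 210 nt against 270, 240, 270 and 210 nt. LINC02693, with 1380, 452, 1588 and 1020 nt, and NHSL1-AS1, with 1137, 1017, 1256 and 1256 nt, had no total RNA peak.

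Of 27 well-known long noncoding RNAs, 14 were called in any list and 9 in all 4 poly(A) lists. TUG1, a nuclear and cytoplasmic RNA, had 3 and 7 peaks over 393 and 1026 nt in total RNA, and 6, 7, 6 and 4 peaks over 2791, 1383, 4259 and 5126 nt in poly(A) RNA. MIR22HG was the other one in all 6 lists, with 328 and 120 nt against 804, 358, 1012 and 893 nt. The nuclear RNAs MALAT1, which ends in a triple helix instead of a poly(A) tail, and NEAT1, the scaffold of paraspeckles, had no peak in total RNA. In poly(A) RNA MALAT1 covered 601, 302, 541 and 1080 nt and NEAT1 covered 631, 301, 1080 and 1320 nt. The imprinted antisense RNA KCNQ1OT1, with 151, 546, 424 and 3614 nt, and MIR100HG were also in 4 poly(A) and no total RNA lists.

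Genes known for transcripts without a poly(A) tail were rarely called in the total RNA lists, which named fewer genes in all (3373 and 3305 against 7010 to 9288). Of 69 genes for replication-dependent histones, whose mRNAs typically end in a stem-loop, 1 and 0 were called in total RNA and 10, 5, 12 and 8 in poly(A) RNA. With lists of equal size, 5 of the 69 were in any poly(A) list and 1 was in 1 total RNA list. Whether the RNA behind a poly(A) call had a tail is not shown by the lists. H2BC21 was the 1 with a total RNA peak, of 179 nt in the knockdown library, against 418, 238, 446 and 535 nt in poly(A) RNA. H3C6 covered 290, 173, 462 and 462 nt and H2BC5 covered 298, 179, 594 and 357 nt in poly(A) RNA and both were at 0 in total RNA. Histone genes are near-identical copies, so single members are uncertain. None of 38 genes for small structured RNAs (snRNAs, 7SK, 7SL, RNase P and the like) was called in any of the 6 lists. Of 11 histone variants made from tailed mRNA, 2 were in both total RNA lists: H2AX, with 386 and 119 nt against 680, 237, 1330 and 768 nt, and H1-10, with 178 and 89 nt against 178, 0, 179 and 0 nt.

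Few genes for short, abundant housekeeping mRNAs were called in either type. Human genes without a peak in any list were not counted, so no share over all genes stands beside these counts. Among other groups, 194 of 396 solute carriers, 367 of 478 ZNF genes and 17 of 69 replication-dependent histone genes were called in any list. Of 78 genes for cytosolic ribosomal proteins, 9 were called in any list and 3 in all 4 poly(A) lists. RPL28 was the 1 in all 6 lists, with 151 and 302 nt in total RNA and 542, 151, 991 and 661 nt in poly(A) RNA, which overlap. RPS29 had 60 nt in the knockdown total RNA list against 417, 179, 596 and 626 nt. Of 32 other abundant mRNAs, such as ALDOA, HSPA8 and TUBB4B, 0 were called in total RNA and 5 in any poly(A) list. Of 48 translation factors, 9 were called in all 4 poly(A) lists and 5 of these in both total RNA lists, among them EIF4G3 with 361 and 270 nt against 390, 240, 689 and 929 nt. EEF1G and EIF3B were in 4 poly(A) lists and no total RNA list. Of 75 nuclear genes of oxidative phosphorylation, 6 were in all 4 poly(A) lists and 2 of these in both total RNA lists.

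Cell cycle and matrix genes lay nearer the share of all genes. For the cell cycle, 8 of 15 genes (53.3%) were in both total RNA lists. MKI67, the proliferation antigen, had 10 and 10 peaks over 1658 and 1537 nt in total RNA, and 11, 8, 10 and 10 peaks over 5822, 2675, 8367 and 7771 nt in poly(A) RNA. The number of MKI67 peaks was thus alike and their length was not. CENPF, a kinetochore protein, covered 1202 and 1505 nt against 3932, 3303, 4260 and 6599 nt, whereas CENPE, a kinetochore motor with 571, 362, 183 and 632 nt in poly(A) RNA, was at 0 in total RNA. For collagens and matrix genes, 9 of 18 were in both total RNA lists. TNC, a matrix glycoprotein, covered 694 and 692 nt against 1650, 1291, 1831 and 1472 nt. COL12A1 overlapped between the types, with 211 and 180 nt against 270, 151, 450 and 450 nt. COL6A1, COL5A2, TIMP2 and the protease MMP14 were in 4 poly(A) and no total RNA lists. Of 114 solute carriers in all 4 poly(A) lists, 41 were in both total RNA lists and 50 (43.9%) in neither, near the shares of all genes. From the shortest to the longest class of covered length, 6 of 27, 11 of 33, 8 of 21, 11 of 22 and 5 of 11 were in both. SLC38A10 covered 1377 and 959 nt against 2542, 1496, 2423 and 2216 nt, and SLC24A1, with 1710, 1741, 2041 and 1980 nt in poly(A) RNA, was at 0 in total RNA.

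The label of the cells could be checked only through peak calls. Of 10 bone and mesenchymal markers, 3 were called: RUNX2, the bone transcription factor, in all 4 poly(A) lists and in the knockdown total RNA list (121 nt), and CD44 and COL1A1 in 3 poly(A) lists each. The other bone and mesenchymal markers, SP7, COL1A2, SPARC, ALPL, VIM, FN1 and THY1, were called in no list. Of 9 epithelial and blood markers, none was called in any of the 6 lists. The share of all human genes called was not counted here, so neither count has a background. A gene without a call may still be expressed, and these calls do not settle the label.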

How the data were processed

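The data were 6 deposited peak lists, 1 per immunoprecipitate, each with 12 columns for position, strand, exon blocks, gene number and score. Per the submitters' processing notes, CASAVA 1.8.2, TopHat2 and SAMtools were used on hg19. Peak caller, threshold and use of the inputs: not given in the sources used here. Lists were separate, so peaks were called per library. The score the authors deposited was read as a p-value from its range of 0 to 0.011, and it only ranked peaks within a list.

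Peak length sums a peak's exon blocks. A region joins peaks from any list with at least 1 bp of shared exon block on 1 strand. Covered length is the union of blocks, since 6.82 to 7.42% of summed peak length overlapped another peak of the same list. RefSeq names (GRCh38.p14, names only) matched 10500 of 10536 gene numbers. No genome of the lists' build was used here, so no sequence is shown. Depth is unknown, and intervals of shares cover counting error only.

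Each library measure was put through an exact permutation test (two-sided, difference of means, 15 splits), with Benjamini-Hochberg adjustment over 13 measures. Regions, genes and gene lists were counted, not tested. Named genes were, by highest lowest percentile, up to 15 genes of total RNA only, 10 of poly(A) only, and 10 of all 6 lists (ranked in total RNA). Added were genes covered more in both total RNA lists, up to 4 members per gene list whose share of libraries called differed most, up to 10 and 5 regions, and ALKBH5. The best-ranked members of a list in all 6 lists, and others so marked, were picked after values were seen. The members and the 18 gene lists were chosen with earlier results of these data known. Alternatives used lists of equal size (5677 peaks), the best-scored 50% of peaks, 50% overlap, 100 bp extension, 1 poly(A) replicate, 1 siRNA, at least 2 peaks per gene, siRNA as a block, and each library left out. Joining, calls and the test were tested on simulated lists. Python 3.11.15, pandas 2.3.3, NumPy 2.4.6, SciPy 1.17.1 and matplotlib 3.10.9 were used.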

Additional observations from a re-analysis of the deposited data

How the results depend on the processing

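No paired analysis was possible because the groups compared share no replicate number (2 for total RNA, 1 and 3 for poly(A) RNA). With siRNA as a block, the smallest p of 9 splits is 0.111. The block changes only the splits, so the differences and their directions stay the same by construction. Directions of peak length, junction share and the share without a gene number held under every other alternative run for them. Lists of equal size gave 1661 regions and 1647 genes in all 6 lists (all 1647 among the 2452), 212 regions and 108 genes in total RNA only, 369 regions and 306 genes in poly(A) only, a mean Jaccard index of 0.438 for mixed pairs (0.278 with full lists), and a reversed difference in peaks per gene, 0.303 against -0.302. With the best-scored 50% of each list, 1317 regions and 1252 genes were in all 6 lists, 4 regions in total RNA only and 2068 in poly(A) only. Knockdown libraries alone gave 120 regions and 21 genes in total RNA only, and 7443 regions and 4449 genes in poly(A) only. Scrambled libraries alone gave 106 regions and 26 genes in total RNA only. With poly(A) replicate 1 alone there were 31 regions and 8 genes in total RNA only, and with replicate 3 alone 3 genes in total RNA only, and 8361 regions and 4429 genes in poly(A) only. With at least 2 peaks per gene, 523 genes were in all 6 lists, 18 in total RNA only and 1102 in poly(A) only. Of regions in any total RNA list, 96.7% were in any poly(A) list, 96.1% at 50% overlap, 94.5% with poly(A) replicate 1 alone and 95.5% with replicate 3 alone. The difference in the 3′-most share was -2.14 percentage points at equal size.

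Leaving out each library gave 2760 to 3641 regions and 2452 to 3097 genes in all lists left, 15 to 103 regions and 1 to 14 genes in total RNA only, 3834 to 5836 regions and 2519 to 3502 genes in poly(A) only, and -0.74 to 1.21 points for the 3′-most share. Without the total RNA knockdown library 89 regions and 14 genes were in total RNA only, and without the scrambled one 103 and 11. Genes in total RNA only were 2, 3 and 2 without poly(A) knockdown replicate 1, knockdown replicate 3 and scrambled replicate 3. Without scrambled replicate 1, 5836 regions were in poly(A) only. The cause was not tested. The lists hold no depth, which limits what a missing call shows.

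After the data were seen, gene groups were also counted under 6 of these settings. In the best-scored 50% of each list, 63.0% of chromatin regulators, 19.2% of ZNF genes, 33.3% of solute carriers and 8.70% of genes noncoding by name were in both total RNA lists, against 33.8% of all genes. At equal size the shares were 90.5%, 41.7%, 65.8% and 37.3% against 68.6%.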
